A study of Mus musculus with 12 samples.

Results

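Toll-like receptors and their partners are the genes by which liver cells sense bacterial products that reach the organ. They were examined here as a set of 10: the receptors Tlr2, Tlr3, Tlr4 and Tlr5, the lipopolysaccharide partners Cd14, Ly96 and Lbp, the adaptor Myd88, and the peptidoglycan proteins Nod1 and Pglyrp2. The genes were chosen by name, with earlier results of these data known. Each was read from the probesets that the platform annotation gives to that gene alone, with the brightest probeset used where there were several. All 10 genes had such a probeset, and 9 of the 10 passed the filter on dim probesets and so belonged to the 11899 genes tested. The exception was Tlr4, whose brightest probeset lay under the filter level of 4.73 on the log2 scale.

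The samples were livers of male C57BL/6 mice, a standard inbred strain, obtained from a commercial breeder and kept with free access to food and water. In the penicillin group 6 mice received a low dose of penicillin in their drinking water from weaning, and in the control group 6 mice received no antibiotic. Livers were taken after 7 weeks of intervention, and the RNA of each mouse was hybridised to 1 Affymetrix expression array. Neither the dose nor the cages are given in the sources used here, so mice that shared a cage cannot be told from independent ones, and p-values measure the spread between these animals.

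The blood that drains the gut passes first through the liver, which is why its sensing of bacteria is of interest when gut bacteria are disturbed. Toll-like receptors recognise different microbial structures: Tlr5 binds flagellin, the protein of bacterial flagella, Tlr4 with its partner Ly96 recognises the lipopolysaccharide of Gram-negative bacteria, Tlr2 recognises bacterial lipoproteins, and Tlr3 recognises double-stranded RNA. Lipopolysaccharide binding protein, encoded by Lbp and secreted by hepatocytes, hands lipopolysaccharide to Cd14, which passes it to Tlr4. Most of these receptors signal through Myd88 to the transcription factor NF-kappaB, while Tlr3 uses another adaptor. Nod1 senses a peptidoglycan fragment inside the cell, and Pglyrp2 is an enzyme, made largely by liver, that cuts peptidoglycan.

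RefSeq promoters of assembly GRCm38.p6 were found for 6 of the 10 genes. Those of Tlr5, which had the largest difference between the groups, and of Nod1 and Tlr3, whose levels varied together across mice, are shown with that of Tlr2 for comparison. Each reads 5′ to 3′ along the gene's own strand, and bases inside the annotated gene are left out for Tlr5 and Nod1. For the others only a window of 30 bases is given, which lies inside the annotated gene. Capitals mark a GC box (GGGCGG) in Tlr5 and a match to the kappaB consensus, the letters bound by NF-kappaB, in Tlr3 and Tlr2. The first is chr1:182954538-182954751 on the plus strand, the second chr6:54972675-54972862, the third chr8:45410572-45410601 and the fourth chr3:83841761-83841790, all on the minus strand.
Tlr5: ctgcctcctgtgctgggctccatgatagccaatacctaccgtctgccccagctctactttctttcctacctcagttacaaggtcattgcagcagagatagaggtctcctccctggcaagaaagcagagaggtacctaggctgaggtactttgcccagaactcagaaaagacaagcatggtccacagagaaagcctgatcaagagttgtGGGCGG
Nod1: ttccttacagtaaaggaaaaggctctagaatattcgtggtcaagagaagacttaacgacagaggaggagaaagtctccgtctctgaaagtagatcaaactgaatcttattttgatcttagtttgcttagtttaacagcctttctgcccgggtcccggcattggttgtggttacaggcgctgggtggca
Tlr3: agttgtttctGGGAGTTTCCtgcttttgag
Tlr2: aggacacctgGGGAATTCCCacacggagcc

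The search covered the 250 bases before each annotated start, on both strands, for the kappaB consensus, the AP-1 site (TGANTCA), the interferon-stimulated response element, the C/EBP site (TTGCNNCAA), the D-box (TTATGTAA), the E-box (CACGTG) and the GC box. A kappaB match was found for Tlr2 and Tlr3, against 5% of 32851 promoters of the same length. The interferon element had a match in Myd88, against 2.98% of promoters, and the GC box for Tlr2, Tlr5, Myd88 and Nod1, against 32.7%. Some of these windows run into the annotated gene itself, from other start sites, and the kappaB matches of Tlr2 and Tlr3 lie inside it. A match is a description of the letters and shows no binding.

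Some arrays stood apart in ways that touch the results. Of 16 immediate early genes, whose transcripts appear within minutes of many stimuli, 15 were tested, and their mean level relative to all arrays reached 2.20, 2.24 and 1.43 in controls 1, 3 and 5, against -0.91 to -0.25 in the other 9 arrays. The mean of 20 acute phase genes, which hepatocytes raise in inflammation, was 1.53 in control 6 and -0.39 to 0.20 elsewhere. The clock output gene Dbp stood at 11.96 to 12.05 in control 6 and in penicillin 1, 5 and 6, and at 6.44 to 10.68 in the others. Hepatocyte identity was plain in every array, with Alb at 14.93 to 15.02. Across all genes limma called 0 of 11899 at an adjusted p of 0.05 (0%), and 950 had an unadjusted p under 0.05 (7.98%).

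None of the 9 sensing genes tested passed. With limma, 0 had an adjusted p under 0.05, and 3 (33.3%) had an unadjusted p under 0.05, beside the 7.98% of all genes; the genes were chosen with such results known, so this share is no support. Tlr5 was the 1 of the 3 that was higher in penicillin livers (4.33% of all genes), and Cd14 and Lbp were lower (3.66%). The groups overlapped for each of the 9, where 0.412% of all genes had no overlap (0.261% with penicillin above). The median difference of the 9 was -0.05 on the log2 scale, with 3 higher and 6 lower, against a median of 0.0064 over all genes, of which 52.8% were higher.

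**Figure D1:**
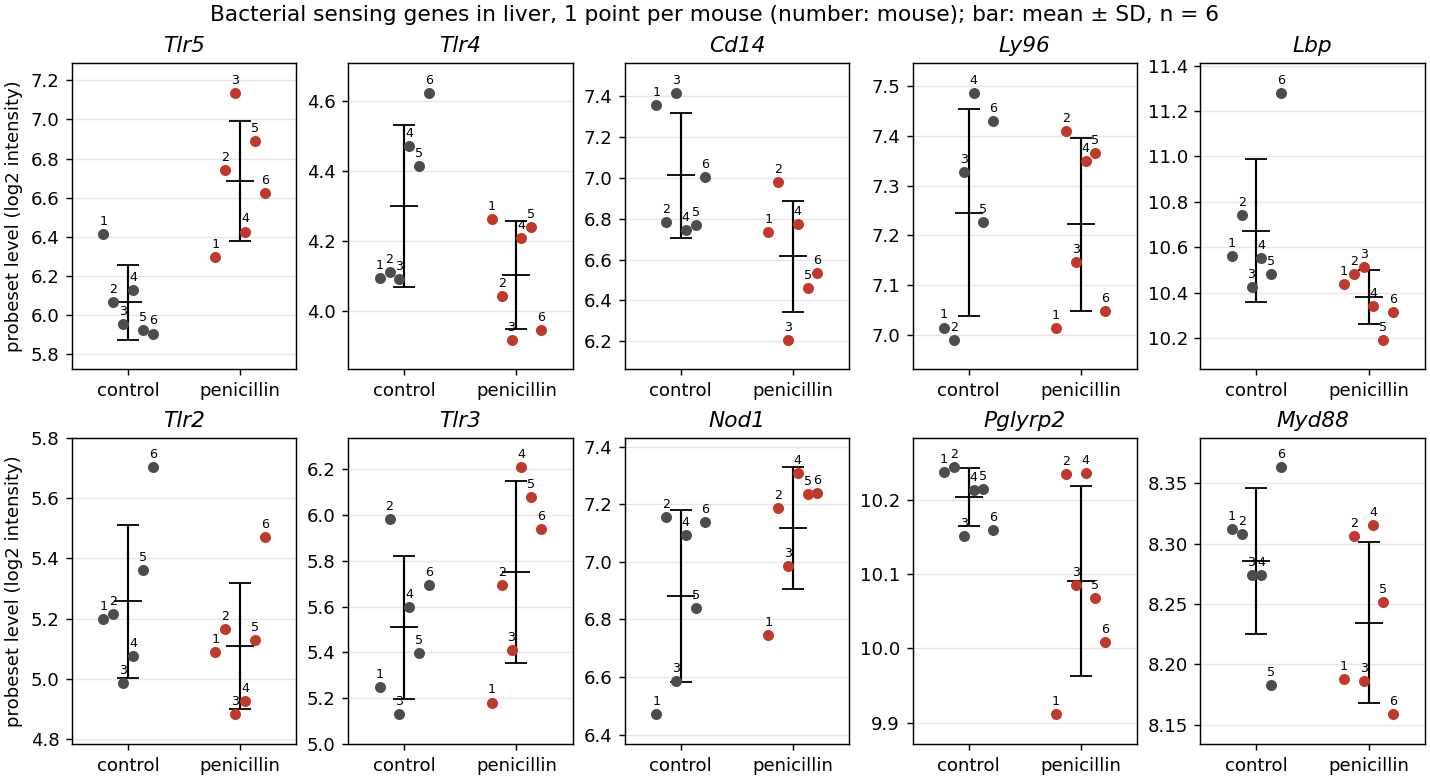
Level of the chosen probeset of each gene (log2 intensity, vertical axis) in 6 control and 6 penicillin livers, with each point a mouse and its number, and bars for the mean and SD. For Tlr5, 5 of 6 penicillin livers lie above all controls; for Lbp, control 6 stands alone at 11.28.

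Tlr5, the flagellin receptor, was the member with the largest difference. Its level in controls ran from 5.91 to 6.41 with a median of 6.01 on the log2 scale, and in penicillin livers from 6.30 to 7.14 with a median of 6.68. All 6 penicillin livers lay above the control median and 5 above every control, the exception being penicillin 1 at 6.30, just under control 1 at 6.41. The mean of treated livers was 6.69 ± 0.31 against 6.07 ± 0.19 (SD, n = 6), a 1.54-fold higher level. The log2 difference was 0.62 (SE 0.13, 95% interval 0.33 to 0.91; limma adjusted p = 0.304). It was the 19th gene of 11899 by p. An exact two-sided permutation test of Tlr5 alone gave p = 0.00433, where 0.00216 is the smallest that the 924 assignments allow. Tlr5 was chosen with earlier results of these data known, so this unadjusted p is no support.

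The Tlr5 difference kept its size without the arrays that stood apart. It was 0.65 (SE 0.17) without control 1, control 3 and control 5, 0.65 (SE 0.18) with the immediate early score as a covariate, and 0.59 without control 6. Without control 6 and penicillin 1, 5 and 6 it was 0.67. Tlr5 was read by 1 probeset, so no second one was there to compare. By Pearson's r over the 12 arrays after each group mean was subtracted, the genes most like Tlr5 were Mfsd8 (0.89), Pphln1 (0.89) and Tshr (0.88); 0.0756% of genes had an r over 0.8. The genes named were picked as the highest of all genes tested, and their r was not set against chance. All these values share the same arrays and normalization.

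Lipopolysaccharide sensing was described by Lbp, Cd14, Ly96 and Tlr4, in the order in which they handle the ligand. Lbp, the carrier protein of plasma, ran from 10.42 to 11.28 in controls (median 10.56) and from 10.19 to 10.51 with penicillin (median 10.39). All 6 penicillin livers lay under the control median, and 3 lay under every control. The mean was 10.38 ± 0.12 against 10.67 ± 0.32 (SD, n = 6), a difference of -0.29 (SE 0.13, 95% interval -0.57 to -0.018; limma adjusted p = 0.602).

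One liver carried much of the Lbp difference. Control 6, at 11.28, was the array with high acute phase genes, and without it the difference was -0.17 (SE 0.075, limma adjusted p = 0.458). The acute phase list as a whole had 20 of 20 genes tested and lower, with group ranges of -0.39 to 1.53 in controls and -0.25 to -0.027 with penicillin, and its part in the Lbp difference was not tested. Without control 6 and penicillin 1, 5 and 6 the Lbp difference was -0.11 (SE 0.087). Without controls 1, 3 and 5 it was larger, at -0.48 (SE 0.14). With the immediate early score as a covariate and all arrays kept, it was also -0.48 (SE 0.14). Control 6 was in both fits, and its part in them was not tested. A second, dimmer probeset of Lbp gave -0.10 (SE 0.11). The genes most like Lbp across arrays were Itih4 (r = 0.96), Itih3 (0.94) and Lrg1 (0.94), all known as plasma proteins of the acute phase; all 3 values include control 6.

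Cd14, the co-receptor found on macrophages and in plasma, was the lowest of the set by difference. Controls ran from 6.75 to 7.42 (median 6.89), and penicillin livers from 6.21 to 6.98 (median 6.64). Control 1 and control 3, at 7.36 and 7.42, stood above all others, and 4 of 6 penicillin livers lay under every control. The mean was 6.62 ± 0.27 against 7.01 ± 0.31 (SD, n = 6), a 1.32-fold lower level. This is a log2 difference of -0.40 (SE 0.15, 95% interval -0.72 to -0.071, limma adjusted p = 0.571). The exact two-sided permutation test of Cd14 alone gave p = 0.0325, unadjusted and for a gene chosen with earlier results known.

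The same control 1 and control 3 had the highest immediate early genes. Control 5, whose immediate early mean was 1.43, had Cd14 at only 6.77. Without these 3 controls the Cd14 difference was -0.23 (SE 0.15), and with the immediate early score as a covariate it was -0.14 (SE 0.16). The genes most like Cd14 across arrays were Srfbp1 (r = 0.89), Man2b2 (0.89) and Ppil4 (0.85).

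Ly96, which encodes the lipopolysaccharide binding subunit MD-2 of the Tlr4 complex, did not separate the groups. It ran from 6.99 to 7.49 in controls (median 7.28) and from 7.01 to 7.41 with penicillin (median 7.25). The difference was -0.024, with a 95% interval of -0.25 to 0.20 (limma adjusted p = 0.974), so differences of either sign within that interval cannot be told apart here. Its sign turned when control 4, control 6, penicillin 1 or penicillin 6 was left out, to at most 0.025.

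Tlr4 itself was dim. Its brightest probeset ran from 4.09 to 4.62 in controls (median 4.26) and from 3.92 to 4.26 with penicillin (median 4.13), under the filter level in every array. In a fit of all 18193 named genes without the filter its difference was -0.20 (SE 0.11; limma adjusted p = 0.777). Its 3 other probesets were dimmer still and gave -0.11, 0.081 and 0.024, so they did not share a sign. The files hold no detection calls, and a level this low cannot be told from background.

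**Figure D2:**
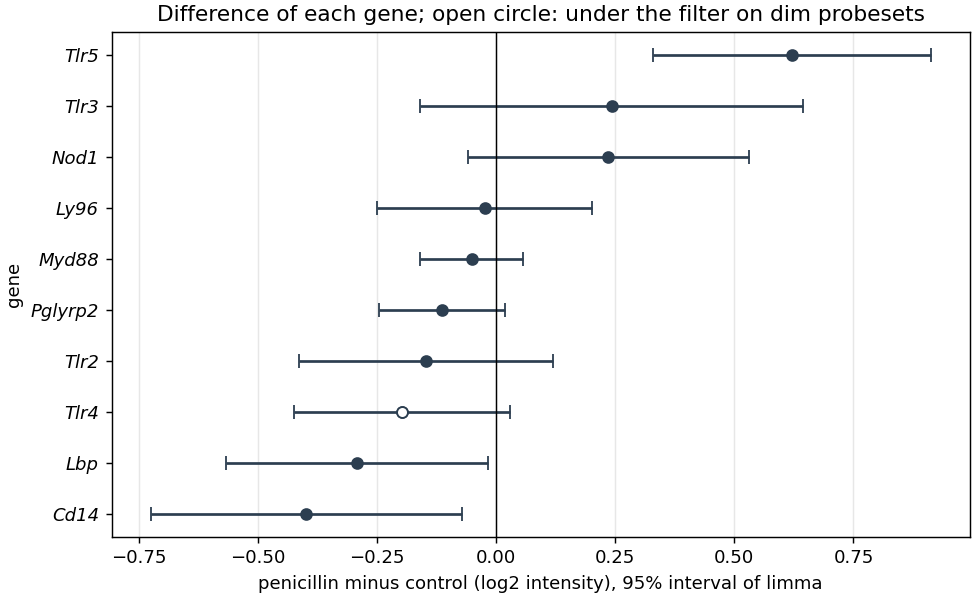
Difference between penicillin and control livers (log2 intensity, horizontal axis) for each of the 10 genes, with the 95% interval of limma. The intervals of Tlr5, Lbp and Cd14 leave out 0 before adjustment over all genes; the smallest limma adjusted p of the 10 was 0.304, for Tlr5.

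The flagellin receptor and the lipopolysaccharide genes were then set side by side within each mouse. Each gene was expressed relative to its own control mean, because levels of different probesets cannot be compared. Tlr4 was left out, since its level cannot be told from background. The mean of Cd14, Ly96 and Lbp was -0.24 ± 0.13 in penicillin livers (SD, n = 6; range -0.35 to -0.020) and ran from -0.15 to 0.26 in controls, so the groups overlapped. Tlr5 minus that mean ran from -0.42 to 0.35 in controls, highest in control 1, and from 0.48 to 1.43 with penicillin, lowest in penicillin 1, with no overlap. With Tlr4 included the 2 ranges were -0.44 to 0.40 and 0.43 to 1.43. The genes were paired with their differences known, so this separation is a description and was not tested.

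Gene by gene, Tlr5 relative to Cd14 was 1.02 ± 0.53 with penicillin against a control SD of 0.30 (n = 6 each), with no overlap. Tlr5 relative to Lbp was 0.91 ± 0.32 against a control SD of 0.42 (n = 6 each). There the groups only just parted, with control 1 at 0.462 and penicillin 1 at 0.467. Relative to Ly96, Tlr5 was 0.64 ± 0.31, and the groups overlapped. Of the mice, penicillin 3 was extreme in both directions, with the highest Tlr5 (7.14) and the lowest Cd14 (6.21). Penicillin 2 combined a high Tlr5 (6.74) with the highest Cd14 of its group (6.98).

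**Figure D3:**
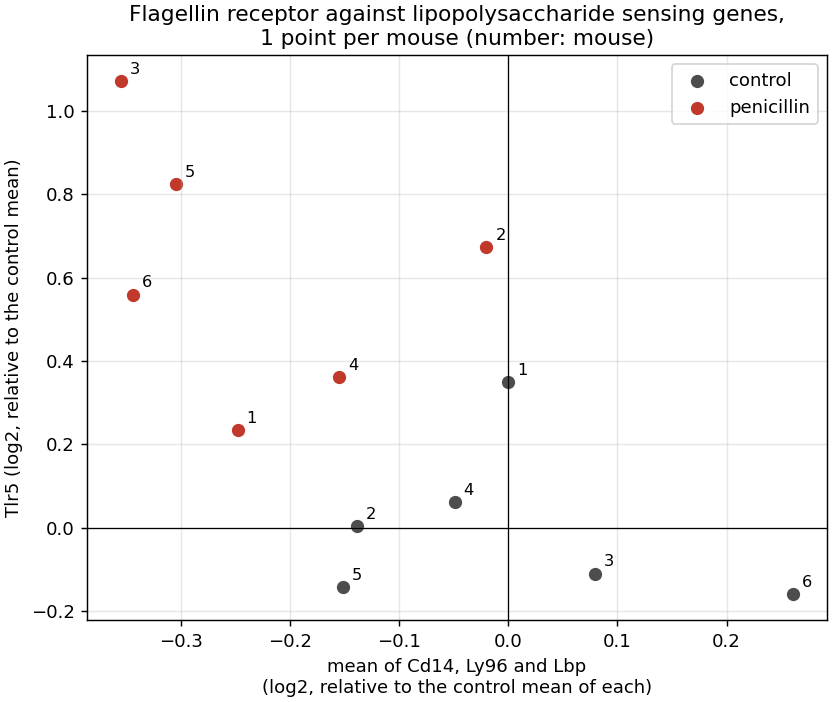
Tlr5 (vertical axis) against the mean of Cd14, Ly96 and Lbp (horizontal axis) in each mouse, both on the log2 scale relative to the control mean of each gene. All 6 penicillin livers lie left of 0 and above 0; the controls spread around 0, with control 6 at 0.26 on the horizontal axis.

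The remaining sensors differed by less than Tlr5, Cd14 and Lbp. Tlr2, the lipoprotein receptor, ran from 4.99 to 5.70 in controls (median 5.21) and from 4.88 to 5.47 with penicillin (median 5.11). Its level was not far above the filter level of 4.73, and there are no detection calls. Its difference was -0.15 (SE 0.12; limma adjusted p = 0.818), and -0.058 without control 6. Control 6 and penicillin 6 were the highest of their groups, at 5.70 and 5.47, and the genes most like Tlr2 were Enpp4 (r = 0.94), Coq7 (0.94) and Cyba (0.92), the last a subunit of the oxidase of phagocytes.

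Control 6 was also the highest array for the 10 markers of Kupffer cells and macrophages, at 0.39, and penicillin 6 the highest of its group, at 0.16. Of these 10 markers 10 were tested, 8 were lower and 2 higher with penicillin, and 0 had a limma unadjusted p under 0.05; their mean ran from -0.20 to 0.39 in controls and from -0.28 to 0.16 with penicillin. After group means were subtracted, the mean of these markers had an r of 0.83 with Tlr2. The r was much the same for monocyte markers (0.83) and for the targets of the pathway (0.84). The part of any of these in the Tlr2 values was not tested. In whole liver RNA, fewer cells of a type and less RNA per cell cannot be told apart.

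Neutrophils, which also carry Cd14 and Tlr2, were covered by 10 markers, of which 4 were tested. All 4 were lower with penicillin and 3 had a limma unadjusted p under 0.05, where 3.66% of all genes were lower at that p: S100a8 (-1.94, SE 0.42), S100a9 (-1.63, SE 0.35) and Csf3r (-0.24). The fourth, the chemokine receptor Cxcr2, differed by -0.034. The markers were listed with earlier results of these data known, so this share is no support. The mean of the 4 ran from -0.11 to 1.27 in controls and from -0.86 to -0.25 with penicillin. The granule genes Elane (-0.10), Ltf (-0.092) and Camp (-0.054) and the gene Ngp (-0.36) lay under the filter level, and no marker was listed at 0. The part of these cells in the Cd14 difference was not tested.

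Tlr3 and Nod1 varied together. Tlr3, the receptor of double-stranded RNA, ran from 5.13 to 5.98 in controls (median 5.50) and from 5.18 to 6.21 with penicillin (median 5.82). Nod1, the intracellular peptidoglycan sensor, ran from 6.47 to 7.16 (median 6.97) and from 6.75 to 7.31 (median 7.21), with 4 of 6 penicillin livers above every control. Their differences were 0.24 (SE 0.19; limma adjusted p = 0.797) and 0.24 (SE 0.14; limma adjusted p = 0.714). After group means were subtracted, r between them was 0.89 over 12 arrays, the highest of the 45 pairs of the set.

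Both genes were low in the controls with high immediate early genes. Nod1 was 6.47, 6.59 and 6.84 in controls 1, 3 and 5, while the remaining controls ran from 7.09 to 7.16. Without those 3 arrays the differences were -0.0076 for Tlr3 and -0.013 for Nod1. With the immediate early score as a covariate they were -0.0025 and -0.041. Single arrays also moved them, in both directions. Nod1 was 0.15 without control 1 and 0.31 without penicillin 1. Tlr3 was 0.15 without penicillin 4 and 0.36 without penicillin 1.

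Tlr3 and Nod1 also varied across mice with markers of other liver cells. After group means were subtracted, the mean of 7 markers of sinusoidal endothelial cells had an r of 0.95 with Nod1 and 0.89 with Tlr3 over 12 arrays, and that of 6 markers of stellate cells and fibroblasts an r of 0.88 and 0.91. The endothelial mean ran from -0.18 to 0.34 in controls, lowest in control 1, and from -0.27 to 0.050 with penicillin, lowest in penicillin 1, with 6 of 7 markers lower and 1 higher. The stellate mean ran from -0.27 to 0.37 and from -0.53 to 0.29, with the same mice lowest and with 5 of 6 markers lower and 1 higher. With limma, 1 of the 7 endothelial and 0 of the 6 stellate markers had an unadjusted p under 0.05. Of all lists compared, the endothelial and stellate means had the highest r with both genes. Other lists also varied with Nod1 and Tlr3, among them other bacterial sensors (0.83 and 0.77) and monocyte markers (0.76 and 0.63). For hepatocyte markers r was -0.60 and -0.66. The r of the immediate early mean was -0.74 with Nod1 and -0.47 with Tlr3. The part of these cells in the Tlr3 and Nod1 values was not tested. The probeset of Tlr3 carries a suffix that marks probes shared with other transcripts, and a second, dim probeset gave 0.063.

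**Figure D4:**
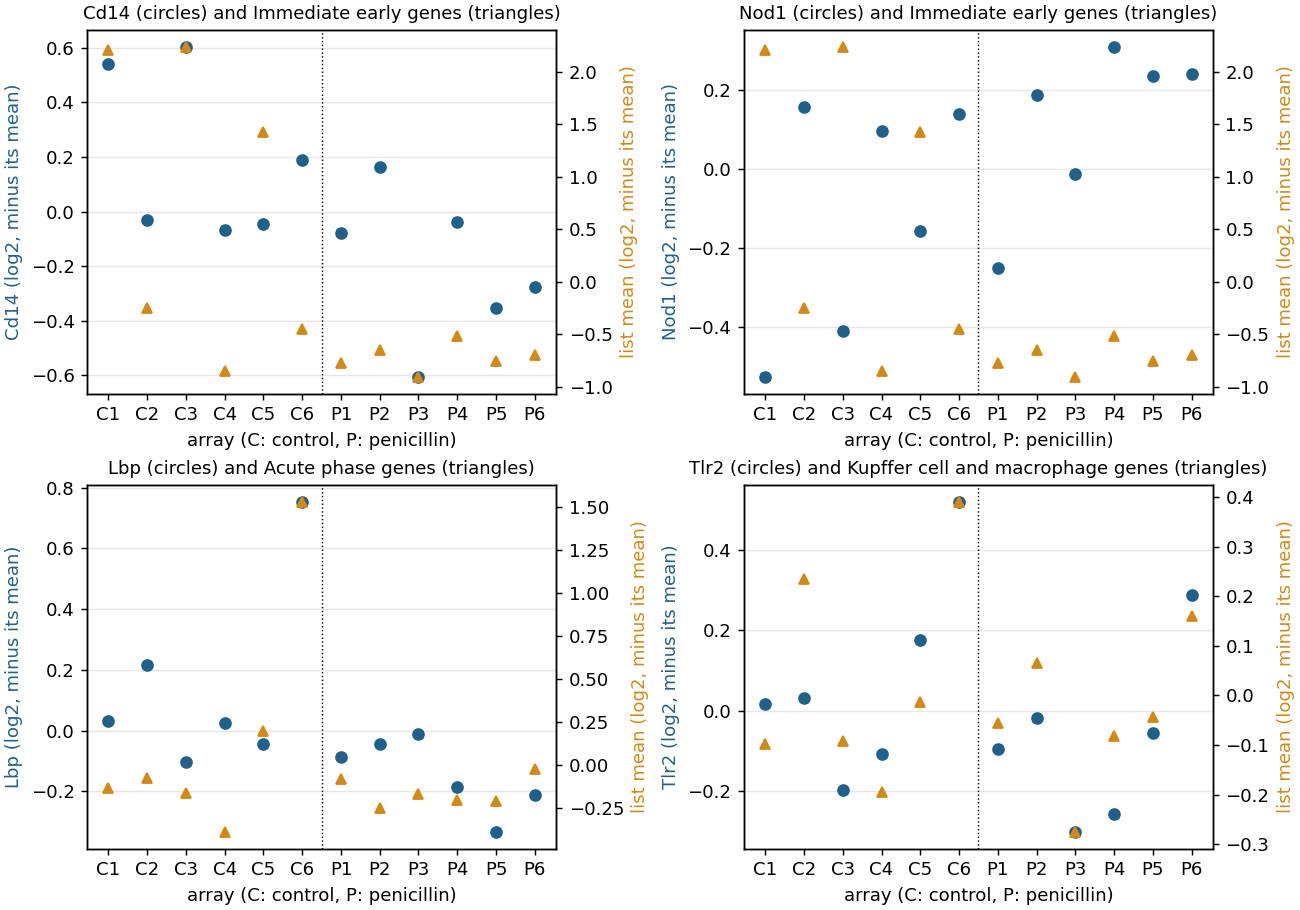
Levels across the 12 arrays (C, control; P, penicillin) of Cd14, Nod1, Lbp and Tlr2 as circles and of a gene list as triangles, each on the log2 scale minus its own mean, with separate left and right axes. Cd14 is highest and Nod1 lowest in C1 and C3, where immediate early genes stand at 2.20 and 2.24; Lbp and Tlr2 are highest in C6.

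Pglyrp2 and Myd88 differed little. Pglyrp2, the peptidoglycan amidase of liver, was tight in controls, from 10.15 to 10.24, and spread from 9.91 to 10.24 with penicillin. Of the penicillin livers 4 lay under every control, while penicillin 2 and penicillin 4 lay among them. Of those 4, penicillin 1, 5 and 6 were arrays with high Dbp. The mean was 10.09 ± 0.13 against 10.20 ± 0.039 (SD, n = 6), a difference of -0.11 (SE 0.061, 95% interval -0.24 to 0.020; limma adjusted p = 0.685), and -0.027 (SE 0.067) without control 6 and penicillin 1, 5 and 6.

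Myd88, the common adaptor, ran from 8.18 to 8.36 in controls (median 8.29) and from 8.16 to 8.32 with penicillin (median 8.22). The difference was -0.051, with a 95% interval of -0.16 to 0.057 (limma adjusted p = 0.859). The genes most like it across arrays were Zscan26 (r = 0.92), Mkrn2 (0.90) and Myo1d (0.90).

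The rest of the pathway was taken from a list of 78 other genes: further receptors and sensors, adaptors and kinases, NF-kappaB subunits, inhibitors and targets. Of these, 66 were named by a probeset and 50 were tested. With limma 0 passed (smallest adjusted p = 0.511); 18 were higher and 32 (64%) lower, against 47.2% lower over all genes. An unadjusted p under 0.05 was reached by 6 genes, all lower (12%), against 3.66% of all genes. The list was written with earlier results of these data known, so these shares are no support. The median difference of the 50 was -0.038.

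Of the 6 groups, the targets had the lowest median, at -0.33, with 9 of 12 tested lower. They held 3 of the 6 genes with a limma unadjusted p under 0.05. Their mean overlapped between the groups. It ran from -0.38 to 1.00 in controls, highest in control 6, and from -0.40 to 0.11 with penicillin. Icam1, an adhesion molecule of endothelium and hepatocytes, averaged 6.62 ± 0.24 in treated livers against 7.07 ± 0.27 (SD, n = 6), a difference of -0.46 (SE 0.14; limma adjusted p = 0.511) with all penicillin livers under all controls; of all genes, 0.151% were separated in that direction. Nfkbiz, an NF-kappaB cofactor induced by Toll-like receptors, differed by -0.73 (SE 0.25). The higher targets with the smallest p, the apoptosis inhibitor Birc3 and the mitochondrial superoxide dismutase Sod2, differed by 0.16 and 0.049.

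Among inhibitors, the ubiquitin-editing enzyme Tnfaip3 differed by -0.44 (SE 0.20) and its partner Tnip1 by -0.13, with 6 of 9 lower. All 3 NF-kappaB subunits tested were lower, Rela by -0.23 (SE 0.084; limma adjusted p = 0.570). Adaptors and kinases were even, with 7 of 14 higher; the kinase complex subunit Ikbkg differed by 0.21 and the kinase Irak2 by -0.19. Of the other bacterial sensors 3 of 7 were higher, with Casp1, the inflammasome protease, at 0.23 and Casp4, the intracellular lipopolysaccharide sensor, at -0.15. Of the other receptors and their chaperones 5 of 13 were tested; the chaperone Hsp90b1 differed by -0.19 (SE 0.082) and Unc93b1, which moves nucleic acid receptors to endosomes, by 0.10.

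Among these lower genes, Nfkbiz was high in the controls that stood apart, at 8.13 to 8.46 in controls 1, 3, 5 and 6 but 6.88 and 7.25 in controls 4 and 2. Icam1 was highest in 1 of them, control 6, at 7.61. It was not raised in controls 1, 3 and 5, at 6.89 to 7.01, beside 7.08 and 6.94 in controls 2 and 4. Without controls 1, 3 and 5, limma gave 1 of the pathway genes an unadjusted p under 0.05, while the count over all genes went from 950 to 491 of 11902. With the immediate early score as a covariate it was also 1, beside 533 of 11899 genes, and limma called 0 in both. The part of those arrays in the list's lower values was not tested beyond these fits.

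**Figure D5:**
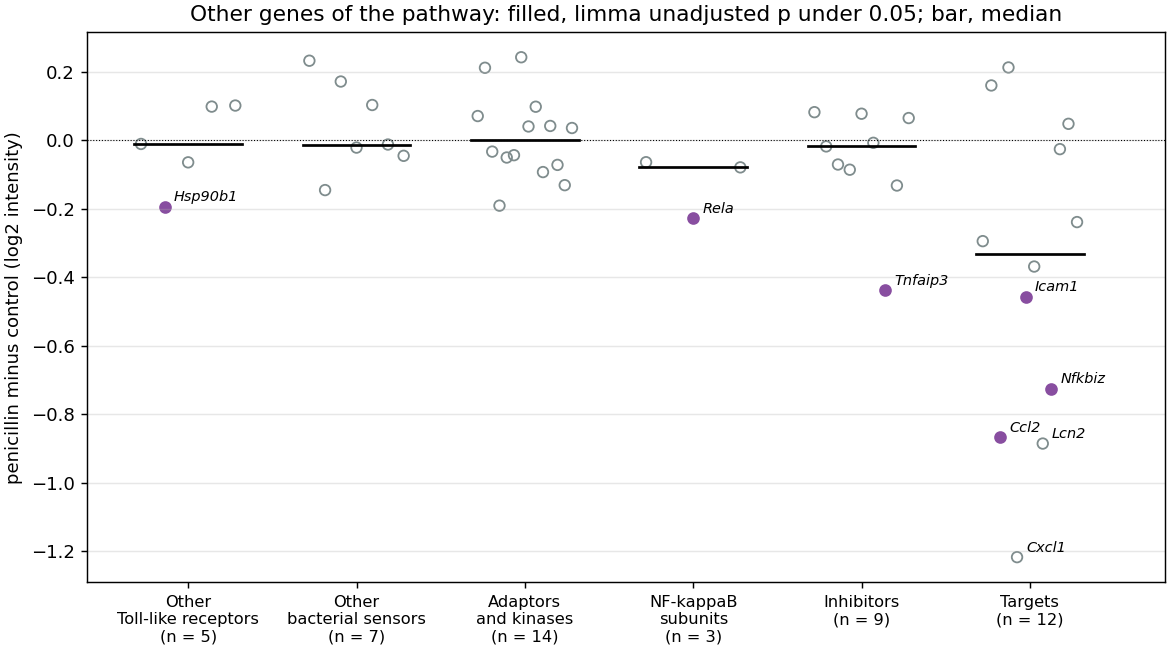
Difference between penicillin and control livers (log2 intensity, vertical axis) for the 50 other pathway genes tested, by group, with a bar for each group's median and filled points for a limma unadjusted p under 0.05. The 6 filled points all lie under 0, and the targets have the lowest median, at -0.33.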

How the data were processed

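Values were probeset intensities deposited by the authors and made with RMA, per the submitters' processing notes; its version and software are not given in the sources used here. This method corrects background, aligns the arrays' distributions and combines probes, which hides any shift common to most genes. The deposited intensities were linear, and log2 was taken here.

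Of 45101 probesets 64 were controls, and 34945 of the others named 1 gene, 932 several and 9160 none. Symbols were updated by gene identifier through RefSeq GRCm38.p6 (18032 found, 162 not). Probesets with a mean under the median of all non-control probesets were left out, and each gene took its brightest probeset. Penicillin and control were compared with limma 3.58.1 in R 4.3.3, two-sided, Benjamini-Hochberg adjusted over 11899 genes. The fit was first tested on simulated data. The members, the lists and several alternatives were chosen with earlier results of these data known. Named beyond the members were the 2 pathway genes of smallest p in each direction per group, named where useful, and the 3 genes most like Tlr5, Cd14, Lbp, Tlr2 and Myd88. Alternatives were other filters, normalizations, priors, array weights, probeset summaries, a replicate block, a threshold of 0.1 and left-out arrays. The array number, 12, limits precision. Any 2 arrays correlated at 0.980 to 0.997, and none was taken as a copy.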

Additional observations from a re-analysis of the deposited data

Results flagged for a closer look

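Of 28 sets of 6 arrays examined (the 10 genes and 4 lists in each group), 2 held an array far from the other 5, where chance flags about 1 in 20. Both were control 6: Lbp stood at 11.28 there, against 10.42 to 10.74 in the other controls, and the acute phase list at 1.528, against -0.39 to 0.20.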

How the results depend on the processing

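With limma, 0 of the members, 0 of the other pathway genes and 0 of all genes passed under any of the alternatives run (23 or 24 each). Members with an unadjusted p under 0.05 numbered 1 to 5, while the count over all genes ran from 491 to 1407. Of 235 member differences under the alternatives, 224 kept their sign. Many of these could not turn, so the share overstates stability. Other filters, the other prior and the replicate block left each difference as it was. So did the mean of all probesets for genes with 1 probeset. Tlr5 ran from 0.53 to 0.70, Cd14 from -0.47 to -0.14 and Lbp from -0.48 to -0.10, with the sign kept in all. The 11 that turned were small: Tlr3 (-0.0076) and Nod1 (-0.013) without controls 1, 3 and 5; Tlr3 (-0.0025) and Nod1 (-0.041) with the immediate early score as a covariate; Ly96 (0.093) without control 6 and penicillin 1, 5 and 6, a set chosen after seeing the data, and from 0.011 to 0.025 without control 4, control 6, penicillin 1 or penicillin 6 (over all single arrays, -0.075 to 0.025); and 2 dim Tlr4 probesets (0.081 and 0.024). The cause was not tested. The same replicate numbers in both groups are not stated to pair mice. Deviations of same-numbered arrays correlated at r from -0.26 to 0.39, over 0.1 in 4 of 6 pairs and under 0 in 1, and 3 of 6 controls correlated best with their own number. With the replicate number as a block, 0 members passed, 5 had an unadjusted p under 0.05 (1214 of all 11899 genes, against 950 without it), and Tlr5 stood at 0.62 (limma adjusted p = 0.354). Dim probesets such as Tlr4 cannot be told from background.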
